A study of Mus musculus with 32 samples.

Results

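The genes described here are 38 mouse genes that type I interferon induces (interferon-stimulated genes, ISGs), taken as a named list and followed through 3 microarray experiments on tumour-associated macrophages. A probe set was used where the platform annotation gave it a single gene symbol, and where a gene had several the one with the highest mean was kept. On the HT_MG-430_PM chip, 34 of the 38 genes were found among 17097 genes, and Isg15, Ifi44, Bst2 and Phf11d were not. On the Mouse Gene 2.0 ST chip, 36 of the 38 were found among 22180 genes. Ifi44 was not, and Dtx3l was present there only in a probe set shared with its neighbour Parp9. Both chips together held 33 of the genes in common.

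The first experiment compared CD11b+ cells, enriched from digested tumours with magnetic beads, from spontaneous neuroblastomas of Th-MYCN transgenic mice (3 arrays) and from EG7 tumours in wild-type (WT) mice (3 arrays). The Th promoter drives MYCN in cells of the sympathetic lineage, and EG7 is a transplanted ovalbumin-expressing T lymphoma line whose cells do not carry the host's mutation. The second compared the same bead fraction of EG7 tumours grown in WT and in Myd88-/- hosts (5 arrays each). The third used flow-sorted cells of EG7 tumours, population A (CD11b+, Ly6G-, Ly6C+, MHCII-) and population C (CD11b+, Ly6C-, MHCII+), of 4 kinds of host. These were WT mice, TNFR1-/- mice, mice with Myd88flox/flox; Tie2-Cre, and doubly mutant mice that carried all of these alleles, with 2 arrays for each population and genotype. Tie2-Cre is active in endothelium and in most blood cells, so the deletion in those hosts is not limited to macrophages. The sources used here give neither host age nor host strain. Nor do they state a separate animal for each array, so the p-values below measure the spread between arrays, which may be technical. Glioma samples, which the study also names, were not analysed here.

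Type I interferons, interferon-beta and the interferon-alphas, bind the receptor formed by IFNAR1 and IFNAR2, which activates the kinases JAK1 and TYK2. Downstream of these kinases, STAT2 and IRF9 act as subunits of the complex ISGF3. ISGF3 binds the interferon-stimulated response element (ISRE) in promoters and turns on genes whose products sense viral RNA, degrade it or block its translation. In macrophages, Toll-like receptor 3 and cytosolic sensors lead to interferon-beta without MyD88, while other Toll-like receptors and the IL-1 receptor family signal through MyD88.

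The genes sit partly side by side in the genome. In the RefSeq table (assembly GRCm38.p6), in which all 38 were found, 14 of them fell into 6 groups of neighbours less than 100 kb apart, namely Ifit1, Ifit2 and Ifit3; Rsad2 and Cmpk2; Parp9, Parp14 and Dtx3l; Mx1 and Mx2; Oas2 and Oas3; and Oasl1 and Oasl2. Promoter sequences from RefSeq, running from 250 bases before to 50 bases after a gene's start, were matched for 27 of the 38 genes. The ISRE core GAAANNGAAA, searched on both strands (TTTCNNTTTC on the other), occurred in the 250 upstream bases of 9 of these 27 genes, Ifit1, Ifit3, Isg15, Oas3, Rsad2, Stat2, Trim30a, Bst2 and Ifi205, against 3.46% of 27025 genes with a promoter sequence. Overlapping cores were counted separately. A match describes the letters in this window and is not a measured binding site.

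Windows of 50 bases around the core nearest to the gene's start are shown for 6 of these genes, because values of Ifit1, Rsad2 and Oas3 recur in the results, Ifit3 is the neighbour of Ifit1, and Isg15 and Stat2 encode a ubiquitin-like modifier and a subunit of ISGF3. Each is written 5′ to 3′ on the gene's own strand in GRCm38.p6, and the capitals mark every core that falls in the window. The windows lie at chr19:34640784-34640833 (Ifit1, plus strand), chr19:34583387-34583436 (Ifit3, plus), chr4:156200855-156200904 (Isg15, minus), chr5:120777705-120777754 (Oas3, minus), chr12:26456543-26456592 (Rsad2, minus) and chr10:128270256-128270305 (Stat2, plus).
Ifit1: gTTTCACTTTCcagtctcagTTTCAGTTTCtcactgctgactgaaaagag
Ifit3: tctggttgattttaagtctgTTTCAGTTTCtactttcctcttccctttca
Isg15: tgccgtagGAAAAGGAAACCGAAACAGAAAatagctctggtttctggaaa
Oas3: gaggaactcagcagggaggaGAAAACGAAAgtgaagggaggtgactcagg
Rsad2: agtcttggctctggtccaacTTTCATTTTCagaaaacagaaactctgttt
Stat2: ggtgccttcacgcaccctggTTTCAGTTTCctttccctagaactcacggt
The window of Ifit1 holds 2 separate cores, and that of Isg15 holds 3 that overlap into a single run. In Stat2 the core lies 222 bases before the start, the farthest among the 9 genes, and in Trim30a 36 bases before it, the nearest.

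All values are the authors' log2 RMA values, so a difference of 1 is a factor of 2. Precision is limited by the number of arrays. Macrophage and monocyte markers were above the filter level (the 40th percentile of the array) on every array of every group, 10 of 10 genes, and markers of other cells were present as well. The mean of 8 T-lymphocyte genes, which the EG7 line also expresses, was 7.96 to 8.27 on the EG7 tumour-model arrays, 5.74 to 6.3 with Myd88-/- and matched WT hosts, and 5.9 to 7.31 after sorting. The mean of 8 neuroblastoma and sympathetic-neuron genes was 7.77 to 8.65 on the neuroblastoma arrays and 3.54 to 3.65 on the EG7 arrays. In the bead fractions fewer cells of a type and less RNA per cell cannot be told apart. Myd88 itself, as a check of the labels, read 7.47 to 7.83 in Myd88-/- hosts and 8.11 to 8.57 in WT hosts, and in population C 7.49 to 8.76 in the 4 arrays with the conditional deletion against 9.22 to 10.05 in the other 4. Tnfrsf1a, which encodes TNFR1, overlapped between genotypes, at 7.55 to 7.87 in the TNFR1-deficient and 7.81 to 8.55 in the other arrays of C, and whether its probes lie in the deleted part is not stated in the labels.

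In the tumour models, no ISG passed the test between neuroblastoma and EG7, and the 3 neuroblastoma arrays lay far apart. Neuroblastoma array 2 had the highest value of its group for nearly all of the family and array 1 mostly the lowest, while the EG7 arrays lay close together. The mean over the 34 genes was 6.4, 9.05 and 6.9 on neuroblastoma arrays 1, 2 and 3, and 7.4, 7.38 and 7.42 on the EG7 arrays. Within the neuroblastoma group the median standard deviation (SD) of the 33 ISGs that passed the filter on low values was 1.41, against 0.27 over all 12577 genes tested. Eif2ak2, which encodes the RNA-activated kinase PKR, read 2.87 to 3.3 on these 6 arrays and did not pass.

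**Figure D1:**
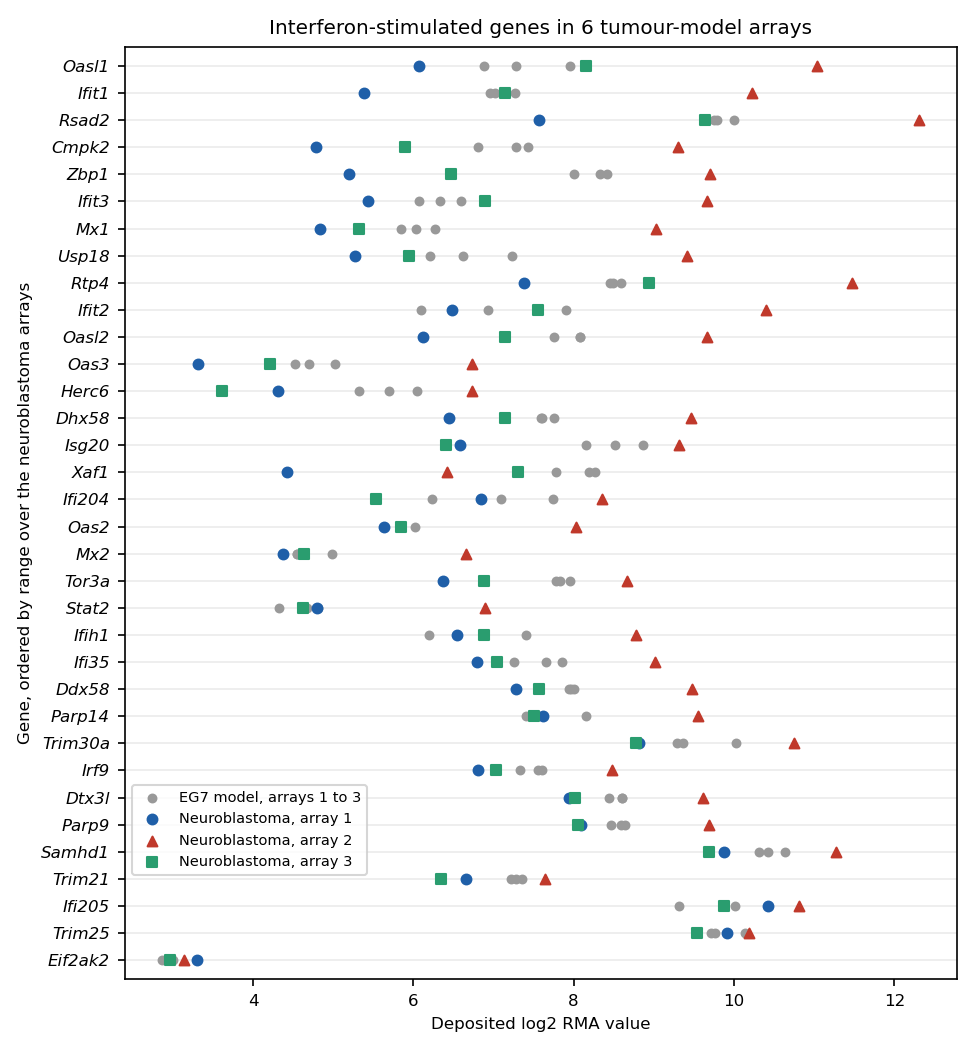
Deposited log2 RMA values (horizontal axis) of the 34 ISGs on the HT_MG-430_PM chip in 6 tumour-model arrays; each symbol is 1 array, and genes are ordered by their range over the neuroblastoma arrays. Neuroblastoma array 2 (triangles) is the highest neuroblastoma array for 32 of the 33 genes tested. Array 1 is the lowest of its group for 22 of the 33.

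Array 2 was the highest neuroblastoma array for 32 of 33 ISGs, a position it held for 33.5% of all genes tested. For 30 of the 33 it lay more than 1 log2 unit above the mean of the other arrays of its group, as it did for 4.11% of all genes, and the median of this gap was 2.17 over the ISGs and -0.01 over all genes. By the probe set used, Xaf1, an apoptosis-associated ISG, was the exception in rank. Its other probe set read 8.3, 11 and 8.24 on neuroblastoma arrays 1 to 3, with array 2 the highest.

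Among the antiviral effectors, Ifit1, whose product binds viral RNA caps, read 5.39, 10.23 and 7.15 on neuroblastoma arrays 1 to 3 and 6.96, 7.02 and 7.27 on the EG7 arrays. Oasl1, a member of the oligoadenylate synthetase family, had 6.07, 11.04 and 8.15 on the neuroblastoma arrays, while the EG7 arrays gave 7.28, 7.95 and 6.88. Rsad2, encoding viperin, which makes a chain-terminating nucleotide, had 7.57, 12.31 and 9.64 on the neuroblastoma arrays, while the EG7 arrays gave 9.79, 10 and 9.75. For each of these 3 genes array 1 was the lowest and array 2 the highest of all 6, so the neuroblastoma group enclosed the EG7 group. Cmpk2, the neighbour of Rsad2 and a mitochondrial nucleotide kinase, read 4.79, 9.3 and 5.9 against 7.43, 7.28 and 6.81. Mx1, a dynamin-like GTPase that blocks orthomyxoviruses, read 4.84, 9.03 and 5.32 against 6.27, 5.85 and 6.03. In these genes arrays 1 and 3 both lay below all EG7 arrays.

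The sensors of foreign nucleic acid showed the same order of arrays. Zbp1, a sensor of Z-form nucleic acid, read 5.2, 9.7 and 6.47 against 8.33, 8.42 and 8.01. Dhx58 (LGP2) read 6.45, 9.47 and 7.15 against 7.76, 7.6 and 7.59. Ddx58, the sensor RIG-I, read 7.28, 9.48 and 7.57 against 8.01, 7.97 and 7.94, and array 2 lay 2.05 above the other neuroblastoma arrays. Among the regulators, Usp18, the protease that removes ISG15 and dampens signalling at IFNAR2, read 5.27, 9.41 and 5.95 against 6.62, 7.23 and 6.21, a gap of 3.8. Of the ISGF3 subunits on the list, Stat2 stood 2.17 and Irf9 1.56 above the other arrays on array 2. The gap was smallest for Ifi205 of the p200 family (0.66), Xaf1 (0.55 by the probe set used) and the ubiquitin ligase Trim25 (0.46) among genes that passed the filter. High values on array 2 thus extended over effectors, sensors and regulators, in different amounts.

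Several genes upstream of the ISGs, other interferon targets and markers of further cells were high on the same array. Not all upstream genes were. Tlr7 (9.23, 8.2 and 7.71 on neuroblastoma arrays 1 to 3) and Tbk1 (9.82, 9.63 and 9.01) were highest on array 1. Ifnb1, the interferon-beta gene, read 3.54, 8.59 and 7.03 on neuroblastoma arrays 1 to 3, so the array with the lowest ISG mean also had the lowest Ifnb1, while the EG7 arrays read 7.67, 6.73 and 7.29. Of the interferon-alpha genes, Ifna1 (3.07, 3.38 and 3.22) and Ifna4 (3.14, 3.55 and 3.09) stayed near the filter level of 3.44 to 3.48. Ifna2 read 6.07 on array 2 and 3.29 and 3.36 on arrays 1 and 3. Irf7, a transcription factor that amplifies interferon production, read 10.26 there against 6.13 and 6.9. Ifng, the interferon-gamma gene, read 6.11 against 3.3 and 2.87, and Cxcl9, a chemokine induced mainly by interferon-gamma, 11.95 against 6.28 and 7.12. The mean of 9 natural killer (NK) cell markers was 7.16 on array 2 against 3.29 and 4.17, and 8 of the 9 were above the filter level there against 2 and 6. The NK receptor gene Ncr1 read 6.87 against 2.67 and 3.37, and Gzma, encoding granzyme A, 10.6 against 2.94 and 5.61. The mean of 5 B-cell markers was 6.58 against 3.44 and 5, all 5 being above the filter level on array 2 and 1 and 4 of them on the others. The 7 plasmacytoid dendritic cell markers averaged 6.47 against 5.07 and 6.06, inflammatory monocyte markers 10.3 against 9.25 and 8.14, and macrophage markers 11.5 against 11.16 and 11. Genes within these 3 lists were split. On arrays 1 to 3, Spib (3.35, 6.93 and 5.23) and Fcgr1 (9.32, 11.88 and 9.64) were highest on array 2. Tcf4 (9.42, 8.64 and 9.8), Mertk (11.08, 10.42 and 10.34) and Vcan (7.72, 6.28 and 4.79) were not. Nor were the neutrophil marker S100a8 (13.01, 11.98 and 11.22) and the fibroblast marker Dcn (12.51, 10.3 and 11.29). The part of these cells in the ISG values was not tested. The 3′ to 5′ signal difference of the actin control probes, a sign of RNA quality, was 0.5, 0.38 and 0.45 on the 3 arrays.

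**Figure D2:**
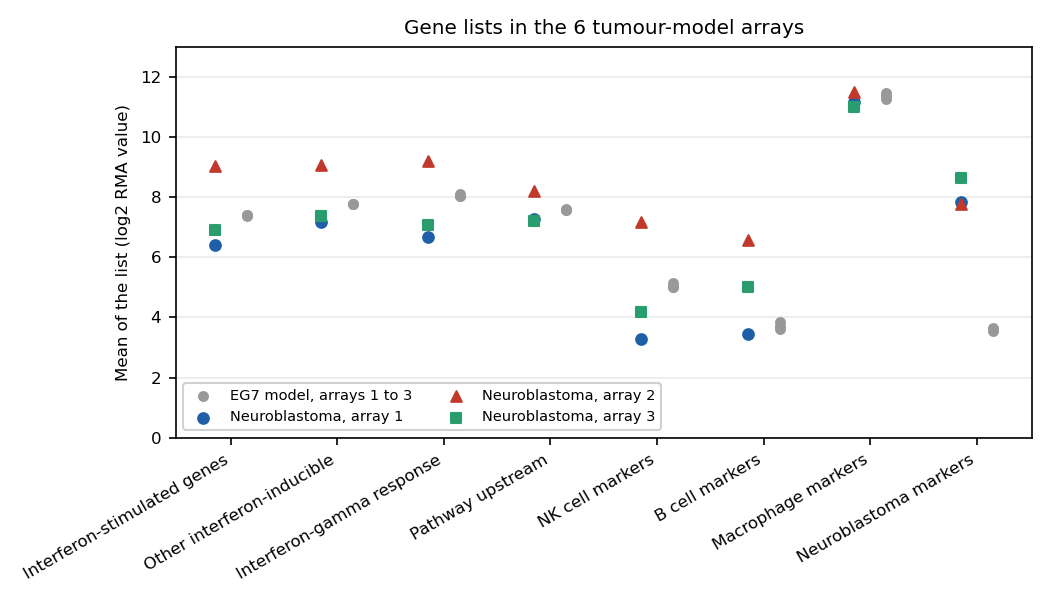
Mean log2 RMA value of each gene list (vertical axis) on the 6 tumour-model arrays, with 1 symbol per array. Neuroblastoma array 2 (triangles) is high for the ISGs (9.05), for the other interferon lists and for the NK-cell (7.16) and B-cell (6.58) markers, but not for the neuroblastoma markers (7.77).

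With all 6 arrays, 0 of 33 ISGs passed limma's test at an adjusted p (Benjamini-Hochberg over all genes tested) under 0.05, the threshold for a call throughout, against 14.7% of all genes; 1 had an unadjusted p under 0.05. The median difference, neuroblastoma minus EG7, was 0.02, with 19 genes above 0 (48.9% of all genes) and 14 below. Centring each array on its median turned that split to 14 above and 19 below. Xaf1 had the smallest p and was the only ISG whose groups did not overlap (lower in neuroblastoma, as for 17% of all genes), at 4.42, 6.42 and 7.31 against 8.19, 8.27 and 7.78, a difference of -2.03 ± 0.68 (standard error, SE; limma adjusted p = 0.1). A second Xaf1 probe set gave the opposite, 5.6 higher in neuroblastoma, and the mean of both probe sets gave 1.78 (limma adjusted p = 0.077), so no direction is given for Xaf1. The next smallest p belonged to Stat2 (0.84 ± 0.59, limma adjusted p = 0.391) and Isg20, an RNA exonuclease (-1.07 ± 0.76, limma adjusted p = 0.395).

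Without neuroblastoma array 2 the picture moved to lower values in neuroblastoma. Then 9 of 33 ISGs were called lower, against 6.99% of all genes, and 0 higher, against 12.5%. Array 2 was picked by these same ISG values, so leaving it out lowers the neuroblastoma means and their spread. The counts and p-values of this fit are therefore no separate support. Differences below 0 were found for 30 of 33, against 52.3% of all genes, with a median of -0.68. Isg20 was 2.02 ± 0.24 lower (limma adjusted p = 0.00365), with 6.58 and 6.41 against 8.86, 8.16 and 8.51. Zbp1 was 2.42 ± 0.38 lower (limma adjusted p = 0.0092). The other 7 were Tor3a, an ATPase of the endoplasmic reticulum (-1.23), the HECT-domain ligase Herc6 (-1.73), Cmpk2 (-1.83), the antibody receptor and ubiquitin ligase Trim21 (-0.78), Mx1 (-0.97), Oasl2 (-1.34) and the dNTPase Samhd1 (-0.68). Leaving out array 3 instead gave 1 call and leaving out array 1 gave 0, and in both cases 25 of the 33 lay above 0. The shares of all genes in these fits are not given, so the counts are not read against them. The sign of most ISG differences turned with the array left out.

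Of 42 other interferon-inducible genes tested between the models, 2 were called higher and 2 lower in neuroblastoma. Ifi202b, a p200 family gene that is not among the 38, gave 9.48, 9.71 and 8.31 on the neuroblastoma arrays against 3.43, 3.26 and 3.17 (limma adjusted p = 0.000367). Ifi44l read 6.76, 9.25 and 8.13 against 2.88, 2.96 and 2.93 (limma adjusted p = 0.00277). Trim12a, a relative of Trim30a, read 2.67, 3.15 and 3.17 against 6.43, 6.09 and 6.7 (limma adjusted p = 0.000497). Trim34a was 1.42 ± 0.31 lower (limma adjusted p = 0.0286). Ifi202b and Ifi44l were below the filter level (3.45 to 3.48) on all 3 EG7 arrays, and Trim12a (filter level 3.44 to 3.48) on all 3 neuroblastoma arrays, so these genes passed the filter through the other group and no size is given for their differences. Of 18 interferon-gamma response genes tested, 1 was called, H2-Aa, 2.63 ± 0.48 lower in neuroblastoma (limma adjusted p = 0.0146).

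The comparison of WT and Myd88-/- hosts asked which transcripts in the CD11b+ fraction depend on signalling by Toll-like and IL-1 receptors. ISG values were mostly lower in Myd88-/- hosts, by small amounts, and a single gene, Usp18, passed the test. Differences below 0 were found for 30 of 34 ISGs, against 46% of all 11915 genes tested, with a median of -0.28 against 0.01. Of the 34, 1 was called, lower, against 1.18% of all genes called lower. By limma's unadjusted p, 13 were under 0.05, a count not set against all genes here. No ISG separated the groups completely (0 of 34, with 1.68% of all genes lower and 1.35% higher without overlap).

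Usp18 values in WT hosts were 6.03, 5.71, 5.83, 5.19 and 5.61. Those in Myd88-/- hosts were 4.73, 4.48, 4.54, 4.97 and 5.19. WT array 4 and Myd88-/- array 5 shared the value 5.19, and all other WT arrays lay above all other Myd88-/- arrays. Usp18 fell by 0.89 (SE 0.17; limma adjusted p = 0.0164), a factor of 1.86. Among other settings, the call was lost without WT array 2 (limma adjusted p = 0.055), WT array 3 (limma adjusted p = 0.0593) or Myd88-/- array 3 (limma adjusted p = 0.0513), with differences of -0.88, -0.85 and -0.83, and with the 16 arrays of the chip in 1 fit, where all groups share the spread (limma adjusted p = 0.928). The next lowest were Mx1 (-0.62), Oasl2 (-0.6), Eif2ak2 (-0.52), Xaf1 (-0.5) and Zbp1 (-0.48), none of them called. Eif2ak2 was low, at 2.73 to 3.1 in Myd88-/- and 2.73 to 3.9 in WT hosts against filter levels of 2.63 to 2.73. Trim25 (0.23), Trim21 (0.09) and Tor3a (0.04) were the 3 genes above 0.

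Within each group, 1 array was low for most of the family. WT array 4 was the lowest WT array for 28 of 34 ISGs, against 21.5% of all genes, and Myd88-/- array 3 the lowest of its group for 20 of 34, against 15.3%. The mean over the 34 genes was 6.41 on WT array 4 and 6.91 to 7.18 on the other WT arrays, and 6.43 on Myd88-/- array 3 and 6.69 to 6.72 on its companions. Oasl1 gave 9.19, 8.72, 8.84, 6.69 and 8.15 on the WT arrays against 8.61, 7.65, 7.14, 7.98 and 8.07, so WT array 4 was the lowest of all 10. Rsad2 gave 10.78, 10.62, 10.64, 9.48 and 10.3 on the WT arrays against 10.46, 10.35, 9.73, 10.43 and 10.46, again with WT array 4 at the bottom. Without WT array 4, 8 ISGs were called, all lower, against 2% of all genes called lower. These were Usp18 (-1.01), Mx1 (-0.73), Oasl2 (-0.75), Xaf1 (-0.61), Cmpk2 (-0.62), the ADP-ribosyltransferase Parp14 (-0.43), Ifi205 (-0.45) and the low-reading Eif2ak2 (-0.68). That array was picked by these same ISG values, so leaving it out raises the WT means and the count is no separate support. Without Myd88-/- array 3, picked in the same way, 28 of the 34 lay below 0, with a median of -0.21, and Usp18 was not called. Over all single arrays left out, 0 to 8 ISGs were called. Of the 34, 28 to 32 lay below 0, with medians from -0.37 to -0.21. Leaving out single arrays thus moved the count of calls, while most differences stayed below 0.

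**Figure D3:**
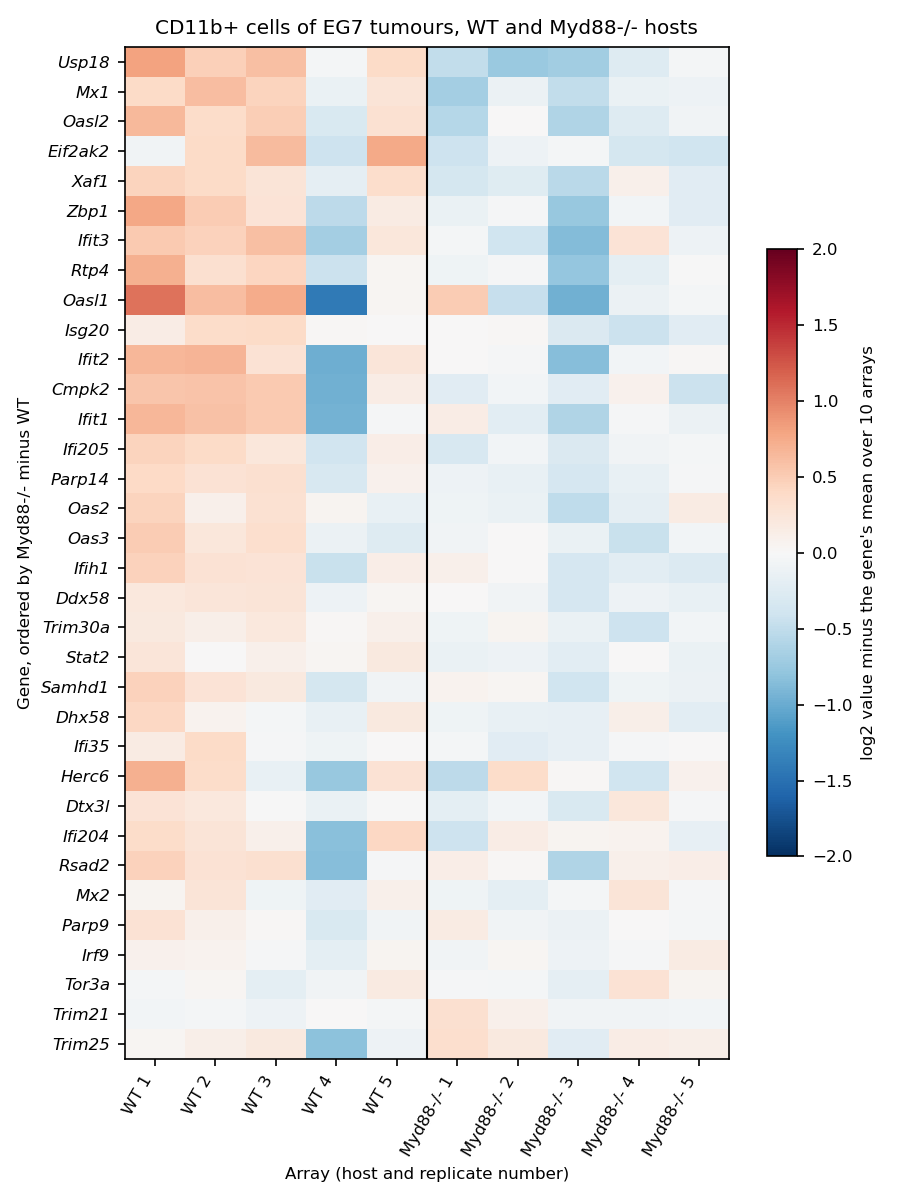
Each cell is the log2 value of an ISG on 1 array minus that gene's mean over the 10 arrays of the Myd88 experiment (colour scale, -2 to 2); columns are WT arrays 1 to 5 and Myd88-/- arrays 1 to 5, and rows are ordered by the difference between hosts. WT array 4 (mean over the ISGs 6.41) and Myd88-/- array 3 (6.43) have the lowest means of their groups and show it as the bluest columns.

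Beside the ISGs, 38 of 41 other interferon-inducible genes tested lay below 0, and 2 were called lower, Ms4a4c (-1.01 ± 0.14, limma adjusted p = 0.00199) and the membrane antiviral gene Ifitm3 (-0.6 ± 0.11, limma adjusted p = 0.0157). All 18 interferon-gamma response genes tested lay below 0 and 0 were called by limma, 7 having an unadjusted p under 0.05. Of 28 upstream and feedback genes, 2 were called lower, Socs3, an inhibitor of cytokine receptors (-0.75 ± 0.12, limma adjusted p = 0.00548), and the kinase gene Ikbke (-0.46 ± 0.1, limma adjusted p = 0.0415). Ifnb1 overlapped between the hosts, at 8.42, 8.2, 8.23, 7.64 and 8.28 on the WT arrays against 8.16, 8.17, 8.57, 8.29 and 8.14. Inflammatory monocyte markers were lower as well. Of 4 measured, 3 were called lower, Ly6c1 (-0.82), Ccr2 (-1.07) and Plac8 (-0.81), and their mean over the 4 was 8.93 to 9.08 in WT and 8.07 to 8.47 in Myd88-/- hosts. WT array 4, on which the ISGs were low, was also the lowest WT array for Ly6c1 (9.61), Ccr2 (7.85) and Plac8 (9.88). For Vcan, the remaining marker, it was the highest WT array, at 8.37 against 7.53 to 7.97. NK-cell markers averaged 4.65 to 5.42 in WT and 4.71 to 5.31 in Myd88-/-. The part of the monocyte markers in the ISG difference was not tested.

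In the sorted cells, part of the family was called between populations A and C, and the count of calls does not set it apart from all genes. All called ISGs but Tor3a were higher in A. Over the 4 genotypes (8 arrays against 8), 9 of 35 ISGs tested were called, against 32.3% of all 16524 genes, with 8 higher in A (11.1% of all genes) and 1 lower (21.3%). Mx1 did not pass the filter. The genes higher in A were Samhd1, Isg20, Oas3, Oasl2, Zbp1, Ddx58, Cmpk2 and Ifi35. The gene lower in A was Tor3a. Of the 35, 14 lay above 0 (52.5% of all genes) and 21 below, with a median of -0.07.

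Samhd1 ranged from 10.92 to 12.18 in A (median 11.51) and from 10.28 to 10.95 in C (median 10.63), 0.87 ± 0.13 higher in A (limma adjusted p = 0.000168). The ranges overlapped only between the lowest A array, WT array 2, and the highest C array, TNFR1-/- array 2. Isg20 ranged from 7.62 to 8.3 in A (median 7.98) and from 6.97 to 7.68 in C (median 7.21), 0.74 ± 0.1 higher (limma adjusted p = 9.86e-05). Oas3 ranged from 7 to 7.72 in A (median 7.49) and from 6.58 to 7.7 in C (median 6.96), 0.45 ± 0.09 higher (limma adjusted p = 0.00159). For Isg20 and Oas3 too, the highest C array was TNFR1-/- array 2. The remaining genes higher in A were Oasl2 (0.47), Zbp1 (0.42), Ddx58 (0.39), Cmpk2 (0.33) and the leucine-zipper protein gene Ifi35 (0.31). Tor3a ranged from 6.67 to 7.41 in A (median 7.09) and from 7.38 to 7.75 in C (median 7.52), 0.46 ± 0.12 lower in A (limma adjusted p = 0.00842). Without the doubly mutant A array 2 the count rose to 15, the same 8 higher and 7 lower, the new ones being Ifit1 (-0.47), Herc6 (-0.42), Ifi204 (-0.98), Ifit2 (-0.29), Stat2 (-0.28) and Ifih1 (-0.31). In that fit 10.3% of all genes were called higher and 20.1% lower. It is named because it gave the highest count over single arrays left out, which ran from 9 to 15. The array left out was the higher of its pair for 28 of 35 ISGs, against 45.6% of all genes. Leaving it out thus lowers the A means of most ISGs, and the added calls are no separate support.

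**Figure D4:**
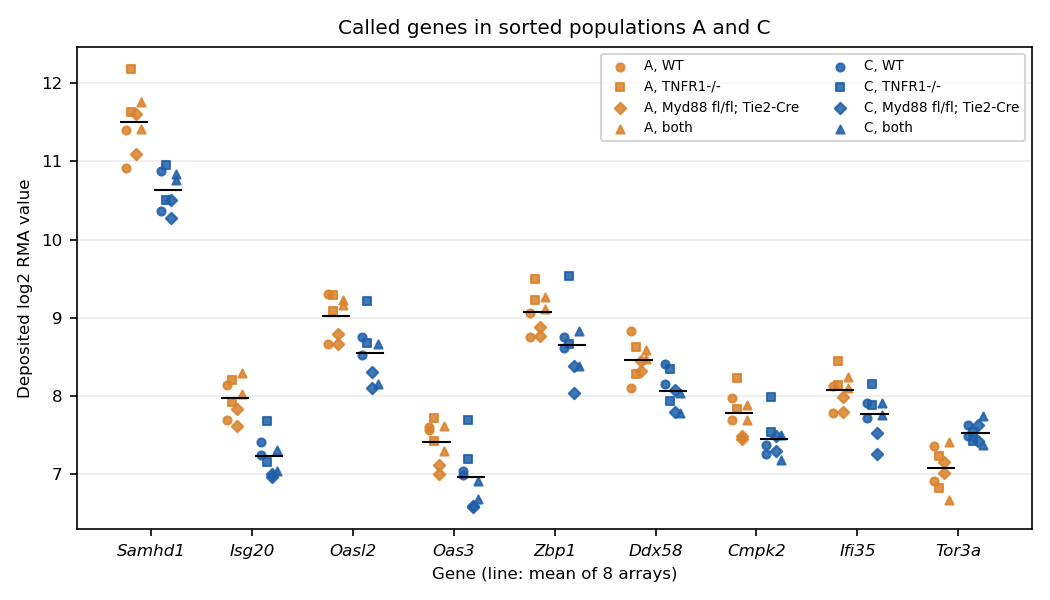
Deposited log2 RMA values (vertical axis) of the 9 ISGs called between populations A (orange) and C (blue), with 1 symbol per array by host genotype and lines at the mean of 8 arrays. Samhd1 shows the largest difference of the 9 (0.87), and Tor3a is the only gene with the lower mean in A.

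In WT hosts alone (2 arrays against 2), 0 of 35 were called by limma, against 13.5% of all genes, and 5 had an unadjusted p under 0.05. The smallest p belonged to Oas3 (0.56 ± 0.18, limma adjusted p = 0.0542), Isg20 (0.58 ± 0.21, limma adjusted p = 0.0749) and Cmpk2 (0.52 ± 0.19, limma adjusted p = 0.0895). Without A WT array 2 there were 2 calls, the highest count over single arrays left out (0 to 2), with no share of all genes beside it. Upstream of the ISGs, 11 of 30 genes were called lower in A over the 4 genotypes and 2 higher. Ifnb1 read 4.81 to 6.03 in A and 6.21 to 7.23 in C, 1.51 ± 0.14 lower in A (limma adjusted p = 4.78e-06), with no overlap. Tlr3 (-0.85 ± 0.09, limma adjusted p = 1.18e-05), Ifnar1 (-0.87 ± 0.12, limma adjusted p = 8.46e-05) and Tlr7 (-1.05 ± 0.17, limma adjusted p = 0.000304) were lower in A as well. Ifnb1 lay below the filter level on A TNFR1-/- array 2 (4.99, level 5.04) and on doubly mutant A array 1 (4.81, level 5). The part of Ifnb1 in the ISG differences was not tested. Among the interferon-gamma response genes, 6 of 19 were called lower in A, among them H2-Aa and H2-Ab1, MHC class II genes of the kind used for sorting. Neutrophil markers averaged 6.23 to 7.03 in A and 5.33 to 5.71 in C, and dendritic cell markers 6.32 to 6.92 in A and 7.02 to 7.65 in C. Their part in the ISG differences was not tested.

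Loss of Myd88 in the sorted populations went with ISG values that were mostly lower, without a call in A or C. Comparing the 4 C arrays that carry the deletion with the 4 that do not, 33 of 35 ISGs lay below 0, against 47.9% of all genes, with a median of -0.29 against 0.01. By limma 0 were called, against 0.0182% of all genes, and 14 of 35 had an unadjusted p under 0.05, as did 771 of 16524 genes. Rtp4, a chaperone of receptors that is strongly induced by interferon, read 7.27, 7.01, 7.63 and 8.34 without the deletion and 6.64, 5.98, 7.31 and 6.64 with it (-0.92 ± 0.19, limma adjusted p = 0.234). Oas3 read 7.04, 6.99, 7.2 and 7.7 without and 6.58, 6.6, 6.92 and 6.68 with it (-0.54 ± 0.13, limma adjusted p = 0.368). Ifit2 read 5.09, 5.25, 5.38 and 5.98 without and 4.85, 4.71, 4.94 and 4.88 with it (-0.58 ± 0.15, limma adjusted p = 0.553). Oas3, Ifit2 and Isg15 were the 3 ISGs whose groups did not overlap, all lower with the deletion, as were 1.41% of all genes. Isg15 lay below the filter level (4.92 to 5.01 on the C arrays) on all 4 arrays with the deletion and on 3 of the 4 without it. Ifit2 lay below it on 3 of the 4 with the deletion and above it on all 4 without. The Rtp4 groups overlapped through the doubly mutant array 1. Inflammatory monocyte markers averaged 7.27 to 8.22 on the C arrays without the deletion and 6.92 to 7.84 on those with it, and their part in the ISG values was not tested.

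In A the same comparison gave 29 of 35 below 0, against 48% of all genes, and a median of -0.12. By limma 0 were called, against 4.67% of all genes, and 5 had an unadjusted p under 0.05. Bst2, encoding tetherin, which holds budding virions at the cell surface, read 6.23, 5.63, 5.44 and 5.46 without the deletion and 5.12, 5.2, 5.09 and 5.48 with it (-0.47 ± 0.14, limma adjusted p = 0.0738). Its groups overlapped through the doubly mutant array 2. Rtp4 was the only ISG without overlap in A, lower with the deletion, as were 2.94% of all genes. Oas3 (-0.32 ± 0.13, limma adjusted p = 0.171) and Usp18 (-0.38 ± 0.16, limma adjusted p = 0.195) came next. Leaving out A WT array 2 gave 1 call, the highest count over single arrays left out (0 to 1), with no share of all genes beside it. Markers of other cells differed in this comparison of A arrays as well. Of 8 T-lymphocyte markers 4 were called higher with the deletion, and their mean over the list was 6.32 to 7.31 with it and 5.9 to 6.65 without. Of 10 macrophage markers 2 were called higher, of 5 fibroblast markers 2, of 6 dendritic cell markers 1 and of 4 endothelial markers 1. All 4 inflammatory monocyte markers lay below 0, with a median of -0.48 and 0 called by limma (1 at an unadjusted p under 0.05). The part of these cells in the ISG values was not tested. The difference between A and C in the effect of Myd88 loss was itself tested, and 0 of 35 were called, as were 0 of all genes; 0 had an unadjusted p under 0.05.

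The 3 tests of Myd88 loss, in the CD11b+ fraction of Myd88-/- hosts, in A and in C, share no array, although the labels do not say whether A and C were sorted from the same animals. Of 32 ISGs tested in all 3, 23 lay below 0 in each, 6 in 2 of them and 3 in 1, and of all 10214 such genes 9.63% lay below 0 in each. Usp18 differed by -0.89, -0.38 and -0.18 in that order, Rtp4 by -0.43, -0.36 and -0.92, Oasl2 by -0.6, -0.13 and -0.48, and Ifi205 by -0.32, -0.48 and -0.87. The genes below 0 in only 1 set were Eif2ak2, Tor3a and Trim25. In C, interferon-gamma response genes (17 of 19 below 0) and other interferon-inducible genes (33 of 40) lay below 0 too, with 0 of either called by limma and 3 and 11 at an unadjusted p under 0.05.

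**Figure D5:**
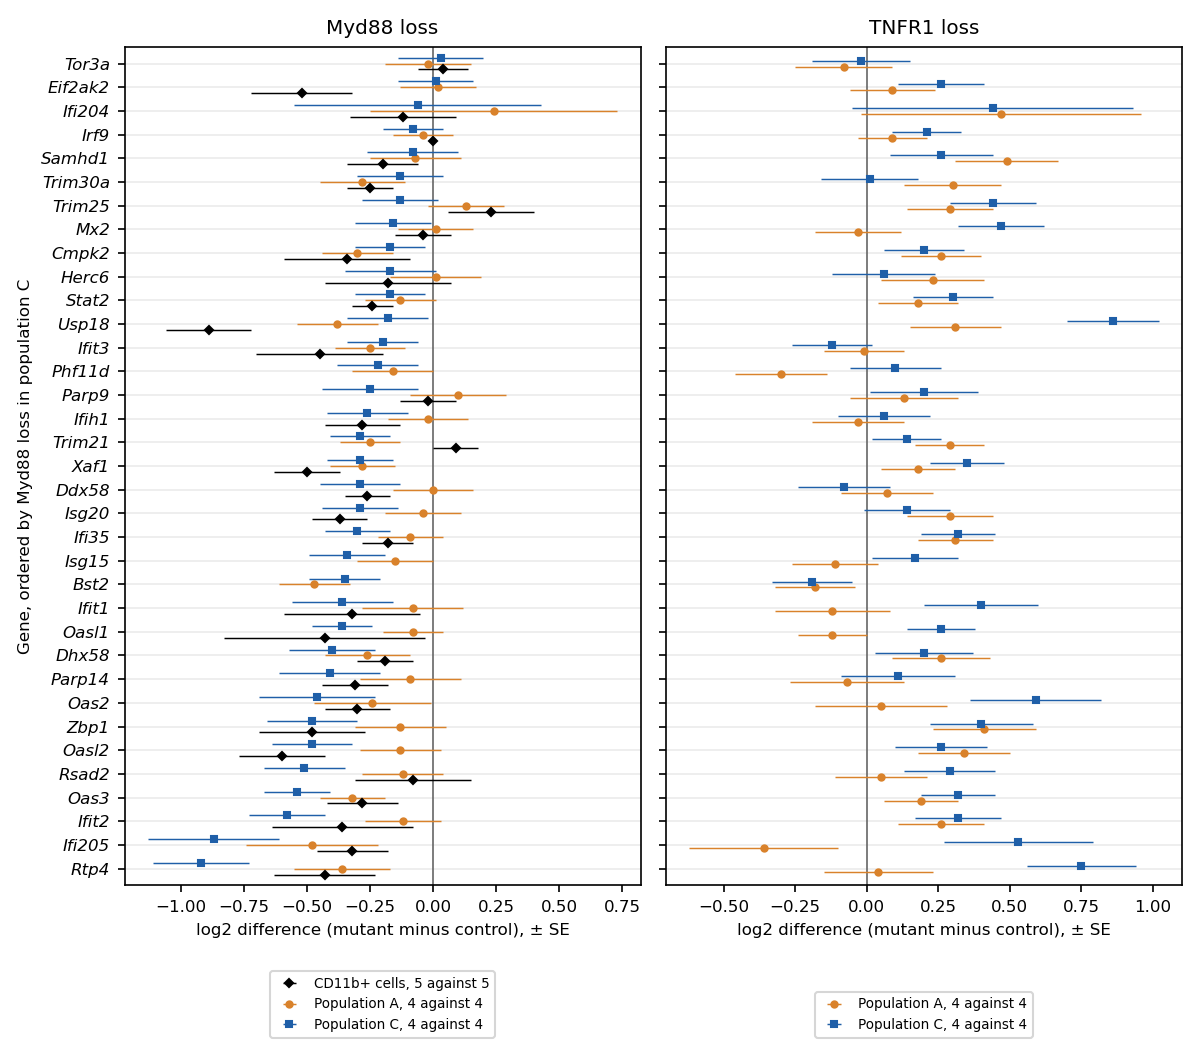
Difference in log2 value with its standard error (horizontal axis) for 35 ISGs on Myd88 loss (left) and TNFR1 loss (right), in population A (orange), population C (blue) and, on the left, the CD11b+ fraction (black); genes are ordered by Myd88 loss in C. On the left 33 of 35 genes lie below 0 in C, and on the right 31 of 35 lie above 0 in C, where Usp18 (0.86) is the one called gene.

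With TNFR1 loss, ISG values in C were mostly higher, and Usp18 was the gene that passed the test. Over 4 arrays against 4, 31 of 35 lay above 0, against 48.9% of all genes, with a median of 0.26. Of the 35, 1 was called, higher, against 0.472% of all genes called higher. By limma's unadjusted p, 11 were under 0.05, a count not set against all genes here. Usp18 read 7.71, 7.4, 7.46 and 7.19 with TNFR1 and 8.14, 8.6, 8.37 and 8.09 without it, and the groups did not overlap. Trim25 was the other gene without overlap, making 2 of 35 against 3.01% of all genes higher. Usp18 rose by 0.86 ± 0.16 (limma adjusted p = 0.0203), a factor of 1.82. The call was lost on leaving out any of 6 of the 8 arrays, at a limma adjusted p from 0.0511 without the doubly mutant array 2 to 0.135 without TNFR1-/- array 2, while the difference stayed between 0.75 and 0.98. Rtp4 followed at 0.75 ± 0.19 (limma adjusted p = 0.097), and Mx2 at 0.47 ± 0.15 (limma adjusted p = 0.262), with 6 of its 8 C arrays below the filter level. Markers of other cells were called higher in the same comparison, 2 of 4 B-cell markers (Ighm and Cd79b), 2 of 7 NK-cell markers (Klrk1 and Klrd1) and 1 of 6 dendritic cell markers (Ccr7). All 4 inflammatory monocyte markers lay above 0, with a median of 0.73 and 0 called by limma (3 at an unadjusted p under 0.05). The part of these cells in the ISG values was not tested. With all arrays in the fit, Usp18 was the only ISG called in any comparison of a mutant with its control, lower in Myd88-/- hosts and higher with TNFR1 loss in C.

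The C arrays of a pair differed over most of the family. TNFR1-/- array 2 was above array 1 for 34 of 35 ISGs, as it was for 51.7% of all genes, with a median gap of 0.45 and a mean over the 36 genes of 7.87 against 7.45. Rtp4 read 7.63 and 8.34 on this pair and Zbp1 8.66 and 9.54. Inflammatory monocyte markers averaged 7.81 and 8.22 on the pair, against 7.27 to 7.82 in WT, and their part was not tested. The doubly mutant C arrays were also apart, array 1 above array 2 for 32 of 35 ISGs (47.4% of all genes), and of the Myd88flox/flox; Tie2-Cre pair array 1 was above array 2 for 31 of 35 (55% of all genes). Over all single arrays left out, 27 to 33 of the 35 lay above 0 on TNFR1 loss in C. In A, 24 of 35 lay above 0 on TNFR1 loss, against 46.7% of all genes, with a median of 0.13; 0 were called by limma, against 0.182% of all genes, and 4 had an unadjusted p under 0.05. Samhd1 had the smallest p there (0.49 ± 0.18, limma adjusted p = 0.253), then Ifi35 (0.31 ± 0.13, limma adjusted p = 0.294) and Trim21 (0.29 ± 0.12, limma adjusted p = 0.303). The test of TNFR1 loss in A against C called 0 of 35, against 0.103% of all genes, with 5 at an unadjusted p under 0.05. The smallest p belonged to Rtp4 (-0.72 ± 0.27, limma adjusted p = 0.665).

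Single mutant genotypes against WT, 2 arrays against 2, gave 0 calls by limma in each of the 6 comparisons. For TNFR1-/- the background was 0.654% of all genes in A and 0.0726% in C, with 3 and 11 ISGs at an unadjusted p under 0.05. For Myd88flox/flox; Tie2-Cre it was 3.18% in A and 0.0121% in C, with 5 and 4 such ISGs. For the doubly mutant hosts it was 5.75% in A and 0.309% in C, with 2 and 2. These comparisons share the WT arrays of their population. In A, Bst2 was nearest to a call in the Myd88flox/flox; Tie2-Cre hosts, at 6.23 and 5.63 in WT and 5.12 and 5.2 in the mutant (-0.77 ± 0.2, limma adjusted p = 0.0518), and it was 0.65 ± 0.2 lower in doubly mutant hosts (limma adjusted p = 0.0695). Ifi205 read 11.15 and 11.47 in A of WT hosts, 10.56 and 10.04 in TNFR1-/-, 9.75 and 10.61 in Myd88flox/flox; Tie2-Cre and 9.88 and 11.08 in doubly mutant hosts. Both WT arrays were above the 6 others, and the doubly mutant pair lay far apart. Samhd1 was 0.74 ± 0.26 higher in A of TNFR1-/- hosts (limma adjusted p = 0.148). In C, Oasl1 of TNFR1-/- hosts, at 7.6 and 8.1 against 6.96 and 7.12, was 0.81 ± 0.17 higher (limma adjusted p = 0.162), Rtp4 of Myd88flox/flox; Tie2-Cre hosts 0.83 ± 0.27 lower (limma adjusted p = 0.999), and Usp18 of doubly mutant hosts 0.68 ± 0.23 higher (limma adjusted p = 0.516).

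The departure of the doubly mutant values from the sum of the single effects, averaged over A and C, was tested and called 0 of 35, against 0.0605% of all genes, and 1 had an unadjusted p under 0.05. Oasl1 had the smallest p (-0.39 ± 0.17, limma adjusted p = 0.573). Departures ranged from -0.61 to 0.71, and with 2 arrays a group none of them was resolved. Ifi204 differed strongly between arrays of one genotype in A. This p200 family gene read 5.98 and 8.61 on the A arrays of WT hosts, 7.29 and 8.45 in Myd88flox/flox; Tie2-Cre and 7.1 and 8.91 in doubly mutant hosts, and in C between 7.72 and 9.04. No comparison of Ifi204 was called with all arrays in the fit.

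The members not yet given by value kept to the following ranges, each gene being set only against itself. Among the effectors, Ifit3, a partner of Ifit1, ranged from 5.44 to 9.66 over the neuroblastoma arrays, 6.07 to 6.59 over the EG7 arrays, 5.37 to 6.85 over the WT and Myd88-/- hosts, 7.4 to 8.18 in A and 7.25 to 7.82 in C. Oas2, another oligoadenylate synthetase, ranged from 5.64 to 8.03 in neuroblastoma and 5.64 to 6.02 in EG7, then 5.28 to 6.23, 7.82 to 8.83 and 7.78 to 9.16 in the same order. Mx2, the neighbour of Mx1, ranged from 4.37 to 6.66 and 4.55 to 4.98, then 4.03 to 4.5, 4.46 to 5.19 and 4.45 to 5.45. In these 3 genes the neuroblastoma range was wider than the EG7 range. The sensor Ifih1 (MDA5) ranged from 6.54 to 8.78 and 6.2 to 7.4, then 6.18 to 7.09, 7.53 to 8.07 and 7.57 to 8.29. Among the regulators, Parp9 ranged from 8.05 to 9.69 and 8.46 to 8.64, then 7.24 to 7.84, 6.12 to 6.68 and 6.22 to 7.26. Dtx3l, the ubiquitin ligase that pairs with PARP9, ranged from 7.94 to 9.61, 8.44 to 8.6 and 6.46 to 7.04 on the chip that held it. Trim30a again had its widest range in neuroblastoma, 8.78 to 10.75, with 9.29 to 10.03, 8.72 to 9.35, 6.02 to 6.92 and 6.27 to 6.99 in the other sets. On the sorted-cell chip alone, Isg15 ranged from 4.53 to 5.18 in A and 4.53 to 5.3 in C, and Phf11d from 5.71 to 6.69 and 6.23 to 6.96, so both populations overlapped. Ifi44 was on neither chip under the rule used.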

How the data were processed

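Values are log2 RMA intensities deposited by the authors, one table for each chip, and the submitters' processing notes name RMA and version 1.1 of Affymetrix Expression Console; RNA was extracted with Trizol and 100 ng labelled per array, per the labels' protocols. They are given to 2 decimals. The sources used here do not say which arrays shared a normalization, so tests stay within an experiment. The members and gene lists were chosen with earlier results of these data known. Of 45141 and 41345 probe sets (HT_MG-430_PM and Gene 2.0 ST), 28898 and 23521 had 1 gene symbol, 551 and 1814 several, and 15692 and 16010 none. A gene was tested if it lay above its array's 40th percentile on a number of arrays no smaller than the smallest group. Models were fitted with limma 3.58.1 (lmFit, eBayes) in R 4.3.3 over all such genes, two-sided, with the 16 sorted arrays in 1 fit of 8 groups. A call is a Benjamini-Hochberg adjusted p under 0.05. Counts at limma's unadjusted p under 0.05 are given without the share of all genes, except for Myd88 loss in C. They are descriptive and are not read as an excess. Named with tests are up to 10 called members per comparison, or the 3 of smallest p where none was called, and up to 4 called genes per other list; genes named beyond this, with arrays left out or by size of difference, were chosen after their values were seen. Sequences are from RefSeq (GRCm38.p6). The fit was tested on simulated data. Alternatives changed the filter, the probe-set rule, array centring, the variance prior, array weights, the replicate block, the arrays in the fit and each array in turn.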

Additional observations from a re-analysis of the deposited data

Results flagged for a closer look

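In groups of 5 arrays, the gap between the lowest or highest array and its nearest neighbour was taken as a share of the range. This share exceeded 0.71 in 7 of 68 combinations of ISG and group. Chance gives about 1 in 20 for a single combination. The ISGs of an array vary together, so the 68 are not independent and an excess was not tested. In WT hosts, array 4 stood alone at the bottom for Ifit2 (6.12, next 7.34; share 0.735), Cmpk2 (4.42, next 5.53; 0.725) and Ifi204 (5.40, next 6.33; 0.75). In Myd88-/- hosts, array 3 stood alone at the bottom for Ifit2 (6.25, next 7.04; 0.908), Rsad2 (9.73, next 10.35; 0.849), Rtp4 (7.17, next 7.74; 0.74) and Zbp1 (6.96, next 7.5; 0.74). All 7 fall on these 2 arrays. Groups of 2 or 3 arrays, among them the neuroblastoma group, were not screened this way.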

How the results depend on the processing

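Counts of called ISGs were recomputed under each alternative. In the tumour models the count of 0 became 1 (lower) with array weights and 1 (lower) with all 16 arrays of the chip in 1 fit, and ran from 0 to 9 over single arrays left out. For Myd88-/- hosts the count of 1 became 3 with array weights, 0 with the replicate block and 0 with all 16 arrays in 1 fit, and ran from 0 to 8. For Myd88flox/flox; Tie2-Cre against WT in A it became 1 with the trended robust prior. Over single arrays left out, A against C ran from 9 to 15 over 4 genotypes and 0 to 2 in WT hosts; TNFR1-/- in A 0 to 2, doubly mutant hosts in A 0 to 2, Myd88flox/flox; Tie2-Cre in A and Myd88 loss in A 0 to 1 each, and TNFR1 loss in C 0 to 1. Other counts stayed within 1.5 times. Of the tested differences of named ISGs, 799 kept direction and side of the threshold, 18 lost a call, 12 gained one, and 1 reversed, Xaf1 between the models, to 1.78 with the mean of its probe sets; the cause was not tested beyond the opposed probe sets. Same-number correlations of deviations ran from -0.05 to 0.22, -0.25 to 0.23 and -0.50 to 0.37 in the 3 experiments. Replicate numbers thus gave no uniform pairing of samples. With 2 arrays a group, whose deviations mirror each other, the check cannot exclude pairing in the sorted cells. With the replicate block, Usp18 in Myd88-/- hosts had an adjusted p of 0.0574, and no other count moved beyond 1.5 times.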
